A study of Arabidopsis thaliana with 24 samples.

Results

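The genes described here are 10 regulators through which Arabidopsis seedlings sense light or the lack of it. They comprise the phytochrome genes PHYA and PHYB, the cryptochrome genes CRY1 and CRY2, the phytochrome-interacting factor genes PIF1, PIF3, PIF4 and PIF5, the bZIP factor gene HY5 and the ubiquitin ligase gene COP1. They were picked by locus (AT1G09570, AT2G18790, AT4G08920, AT1G04400, AT2G20180, AT1G09530, AT2G43010, AT3G59060, AT5G11260 and AT2G32950, in that order). The rule names no measured value, but earlier results of these data were known when the genes were chosen. Each locus matched 1 probe set that names no other gene, out of 22746 probe sets tested and 21755 loci that have a probe set of their own. The array annotation lists PIF1 and PIF5 under their older names PIL5 and PIL6.

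The study asked how expression differs in Arabidopsis thaliana, accession Col-0, between spaceflight and unit gravity, in material with and without organs. It used 24 Affymetrix arrays in 4 groups of 6: undifferentiated cultured cells derived from hypocotyls and etiolated seedlings, each flown or kept as a ground control. All plants were wild type. About 1 g of cells or about 75 seeds were spread over agar medium in a 60 mm dish and stayed in darkness, with the seeds chilled at 4 °C before use. Flight dishes sat in BRIC canisters on the middeck and received RNAlater while still in space, 12 days and 21 hours into the flight. Ground dishes sat at the same canister positions in what the labels call the OES chamber and are labelled as fixed too. Every sample is labelled 7 days old, and how this relates to the time in orbit is not given in the sources used here. A description deposited with the tables calls the 6 samples of a group biological replicas. Separate cultures are not stated in the labels, and the p-values measure only how these samples vary, part of which may be technical.

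Phytochromes absorb red and far-red light and cryptochromes absorb blue light. In darkness COP1, together with SPA proteins, marks HY5 and other promoters of greening for degradation, while PIF proteins accumulate and keep the seedling pale, long and closed. Light reverses this: active phytochrome enters the nucleus and triggers the breakdown of PIFs, COP1 is inhibited, and HY5 switches on light-responsive genes. PHYA is the phytochrome that builds up in dark-grown seedlings and is lost in light. Much of this control acts on the proteins, which were not measured here.

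Levels are given as log2(intensity + 16), so 1 unit is a doubling of bright signals and less than that of dim ones. Each array has its own background, which is the 95th percentile over its 27 probe sets for bacterial genes, and a gene at or under it has only an upper bound there. The materials differed strongly in how much could be measured. Flight seedling arrays had 56.6% to 66.7% of probe sets above background, ground seedling arrays 39.0% to 61.5% and ground cell arrays 11.5% to 23.1%. Flight cell arrays ranged from 9.94% to 29.4% apart from replicate 5, which reached 76.7%. Over all probe sets, pairs of arrays within a group had a median correlation of 0.890 in flight and 0.813 in ground seedlings, but 0.304 in flight and 0.315 in ground cells. Single cell arrays correlated with the seedling arrays (medians 0.202 to 0.444) about as they did with other cell arrays (0.259 to 0.411). The cell values below are therefore much less certain than the seedling values. As a check of the labelled tissue, 5 of 6 shoot epidermis markers exceeded background on 3 or more of 6 arrays in both seedling groups, and PDF1, an epidermal marker, averaged 11.21 in flight and 9.12 on the ground. Of 7 root markers, 2 were (SHR and SCR, regulators of the inner root tissues). In the cells 0 of 6 epidermis markers reached this in flight and 1 of 6 on the ground, and no root marker did. Of the light-induced genes with a probe set, ELIP1 was above background on no seedling array, CHS on 1 flight and 2 ground arrays, and ELIP2 on 6 flight and 3 ground arrays. Of the etiolated cotyledon markers, PORA was above background on 4 flight and 0 ground seedling arrays, and PORB on 6 and 3. PORA averaged 6.92 in flight and 7.28 in ground seedlings, against 8.87 and 8.58 in cells. It was above background on 3 of 6 flight and 2 of 6 ground cell arrays. Many of these values are upper bounds, so the order of the materials is not shown. Of 3 dry seed markers, 1 was above background on 3 or more flight seedling arrays and 0 on the ground.

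Dark-grown seedlings had a clear signal for most of the 10 genes. PHYA, PHYB, CRY2, HY5 and COP1 were above background on all 12 seedling arrays, CRY1 and PIF4 on 11 and PIF3 on 10. PIF5 was above background on 6 and PIF1 on 5. In the cells the count per gene ran from 0 of 12 for COP1 to 7 of 12 for HY5, and 7 of the 10 genes were measured on no ground cell array or on 1. Flight cell replicate 5, the array with the low background, held 8 of the 10 above background, all but CRY2 and COP1. The other cell arrays held 0 to 3.

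**Figure D1:**
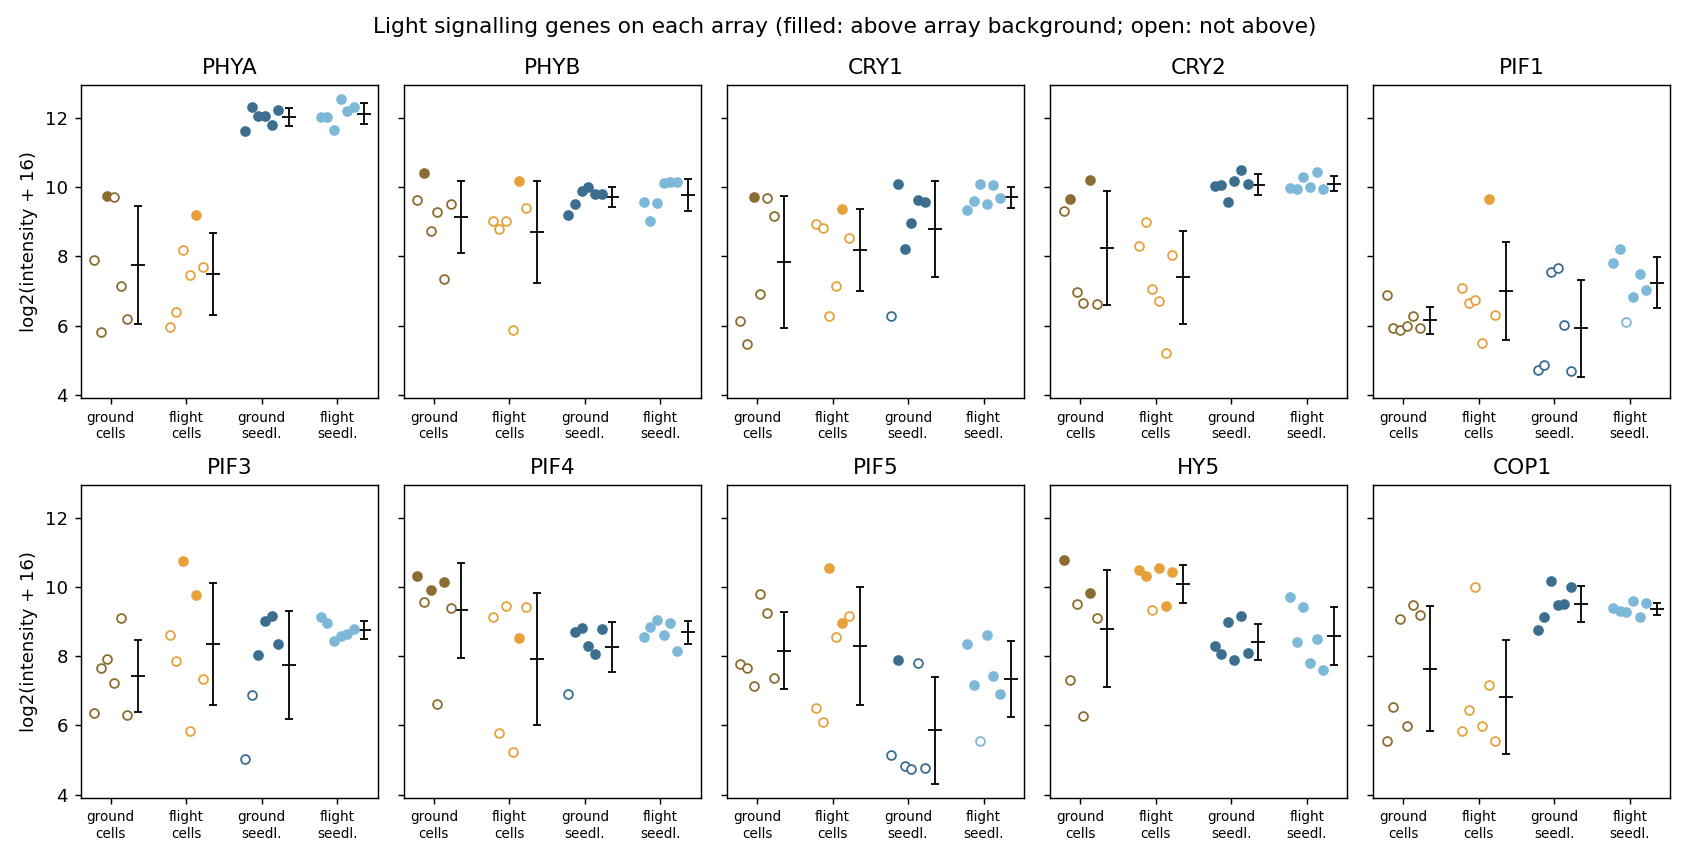
Level of each gene on each of the 24 arrays as log2(intensity + 16), 1 panel per gene, with filled points above the background of their array and open points not above it, and the bar showing mean ± SD of 6 arrays. PHYA sits between 11.62 and 12.54 on all seedling arrays and at or under 9.74 on all cell arrays, and the open points show how few cell values are above background.

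Among the photoreceptors PHYA showed the clearest pattern. Its lowest, median and highest values were 11.62, 12.06 and 12.32 in ground seedlings and 11.64, 12.11 and 12.54 in flight seedlings. In ground cells they were 5.82, 7.52 and 9.74, and in flight cells 5.95, 7.58 and 9.20. Every seedling array was above every cell array, and within each material the flight and ground values overlapped. On the ground the difference of cells from seedlings was -4.26 log2 units (7.75 ± 1.70 against 12.01 ± 0.26, SD, n = 6; limma adjusted p = 3.51e-06, lower in 6 of 6 arrays). In flight the difference was -4.64 (7.48 ± 1.19 against 12.12 ± 0.30, SD, n = 6; limma adjusted p = 4.93e-07, lower in 6 of 6). PHYA was above background on 1 cell array of each group, at 9.74 and 9.20, so most of the cell level is an upper bound. With every array raised to its own background the difference was -2.11 on the ground and -2.27 in flight, an alternative chosen after the data were seen. Most cell values are then the backgrounds of their arrays. The p-values of that setting would measure the spread of those backgrounds rather than of PHYA, so none is given. In whole tissue and cell cultures alike, fewer cells of a type and less RNA per cell cannot be told apart.

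PHYB, the main phytochrome of light-grown plants, was steady in seedlings and mostly unmeasured in cells. Ground seedlings ranged from 9.21 to 10.00 with a median of 9.81, and flight seedlings from 9.02 to 10.16 with a median of 9.85. Ground cells ranged from 7.35 to 10.41 and flight cells from 5.88 to 10.17, with 1 array of each above background, at 10.41 and 10.17. All 4 groups overlapped, and neither material difference passed (-0.56, adjusted p = 0.483 on the ground, and -1.04, adjusted p = 0.164 in flight, limma).

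CRY1, the blue light receptor of seedling growth, was above background on 11 of 12 seedling arrays. Flight seedlings had a lowest, median and highest value of 9.33, 9.64 and 10.08, against 6.29, 9.27 and 10.09 on the ground. The lowest ground value came from replicate 1, the seedling array with the smallest share of probe sets above background (39.0%). In the cells CRY1 was above background on 1 array of each group, and the ranges were 6.29 to 9.38 in flight and 5.46 to 9.72 on the ground. Neither material difference passed (-0.94, adjusted p = 0.284 on the ground, and -1.53, adjusted p = 0.0723 in flight, limma).

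CRY2, the cryptochrome that is broken down in blue light, was steady in seedlings at 9.94, 9.99 and 10.45 (lowest, median, highest) in flight and 9.57, 10.09 and 10.48 on the ground. Ground cells had 6.63, 8.15 and 10.20, with 2 arrays above background, and overlapped the seedlings. Flight cells had 5.22, 7.54 and 8.999, with none above background. These values did not overlap those of flight seedlings, but all are upper bounds. On most flight cell arrays the background lay above the lowest flight seedling value. The difference of cells from seedlings was -1.83 on the ground (limma adjusted p = 0.0235) and -2.71 in flight (limma adjusted p = 0.000959). Counted against background, CRY2 was at least 1.44-fold lower in flight cells. With values raised to background the differences were -0.10 and -0.52. All flight cell values and most ground cell values are then the backgrounds of their arrays, so no p-value is given for that setting. The ground call was lost without ground cell replicate 3, 4 or 6 (limma adjusted p up to 0.0694).

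COP1, the ubiquitin ligase that removes HY5 in darkness, was present on every seedling array and above background on no cell array. Flight seedlings ranged from 9.13 to 9.59 around a median of 9.34, and ground seedlings from 8.76 to 10.18 around 9.48. Cell values reached 9.99 in flight and 9.48 on the ground, with medians of 6.22 and 7.81, and overlapped the seedlings in both. The difference of cells from seedlings was -1.88 on the ground (7.63 ± 1.80 against 9.51 ± 0.53, SD, n = 6; limma adjusted p = 0.0284) and -2.54 in flight (6.83 ± 1.65 against 9.37 ± 0.17, SD, n = 6; limma adjusted p = 0.00288). No fold is given, because the background of most cell arrays lay above the mean seedling level, and with values raised to background the differences were 0.39 and 0.21. On flight cell replicate 5, where background was at 7.55, COP1 was at 7.15 and CRY2 at 5.22, both under the lowest seedling value. That is a single array unlike the other cell arrays, with 76.7% of probe sets above background, more than on any seedling array. The ground call was lost in 5 of the 12 fits that left out 1 array (without ground cell replicate 1, 2 or 4 or ground seedling replicate 3 or 6, limma adjusted p up to 0.0933).

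HY5, which drives greening genes in the light, was the member measured most often in the cells. Flight cells had a lowest, median and highest value of 9.33, 10.36 and 10.55, with 5 of 6 arrays above background, and ground cells 6.26, 9.31 and 10.77, with 2 of 6. Flight seedlings had 7.61, 8.46 and 9.72 and ground seedlings 7.88, 8.20 and 9.16, with all 12 arrays above background. Flight cells were higher than flight seedlings by 1.51 units (10.09 ± 0.55 against 8.58 ± 0.84, SD, n = 6; limma adjusted p = 0.0479, above the seedling mean in 6 of 6 arrays), though the groups overlapped. The median of all probe sets was itself 0.75 higher in cells, which leaves 0.76 for HY5. The call was lost with quantile normalization, with a filter on dim probe sets, with a pseudocount of 1, and without any of 8 single arrays (flight cell replicate 1, 2, 4 or 6, or flight seedling replicate 2, 4, 5 or 6). On the ground the difference was 0.38 (limma adjusted p = 0.645).

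The PIF genes encode the transcription factors that hold seedlings in the dark state, and none was shown to differ between the materials at measured levels. PIF3 ranged from 8.43 to 9.14 in flight seedlings and from 5.02 to 9.15 on the ground, against 5.83 to 10.76 in flight cells and 6.30 to 9.10 in ground cells. PIF4, also known for growth at warm temperature, ranged from 8.14 to 9.04 in flight and 6.92 to 8.82 in ground seedlings, and from 5.22 to 9.44 and 6.63 to 10.31 in the cells. PIF1, a repressor of seed germination in the dark, was above background on 1 of 12 cell arrays. PIF5 was higher in ground cells than in ground seedlings in the fit (8.16 ± 1.099 against 5.86 ± 1.54, SD, n = 6; limma adjusted p = 0.0113), but it was above background on 0 of 6 cell arrays and on 1 of 6 seedling arrays, so no fold is given. That call was lost with quantile normalization. The other PIF material differences lay between -0.77 and 1.06, with limma adjusted p from 0.212 to 0.792.

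In all, 4 of the 10 genes were called between the materials on the ground, CRY2, COP1 and PHYA lower in cells and PIF5 higher, beside 38.1% of all probe sets (27.6% higher in cells and 10.5% lower). In flight 4 were called, PHYA, CRY2 and COP1 lower and HY5 higher, beside 45.4% of all probe sets (32.9% higher and 12.5% lower). The groups did not overlap for 1 member on the ground (PHYA), beside 9.7% of all probe sets (4.95% higher in cells and 4.76% lower), and for 2 in flight (PHYA and CRY2), beside 16.6% (8.44% higher and 8.18% lower). All flight cell values of CRY2 were under background. The median of all probe sets was 0.77 units higher in cells on the ground and 0.75 in flight, and the median of the 10 genes was -0.44 and -0.91. Cell arrays also had the higher background, 171 to 1278 intensity units against 79.8 to 243 in seedlings, and the part of this in the differences was not tested beyond the values given above. With quantile normalization 0 members were higher and 3 lower in cells on the ground, and 0 higher and 4 lower in flight. Canister G was the only canister name found in both materials, with 2 cell arrays and 1 seedling array per condition. There PHYA differed by -5.55 on the ground and -3.86 in flight, CRY2 by -1.68 and -3.31, COP1 by -0.67 and -3.20, and HY5 by 1.37 and 2.32, with no test.

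**Figure D2:**
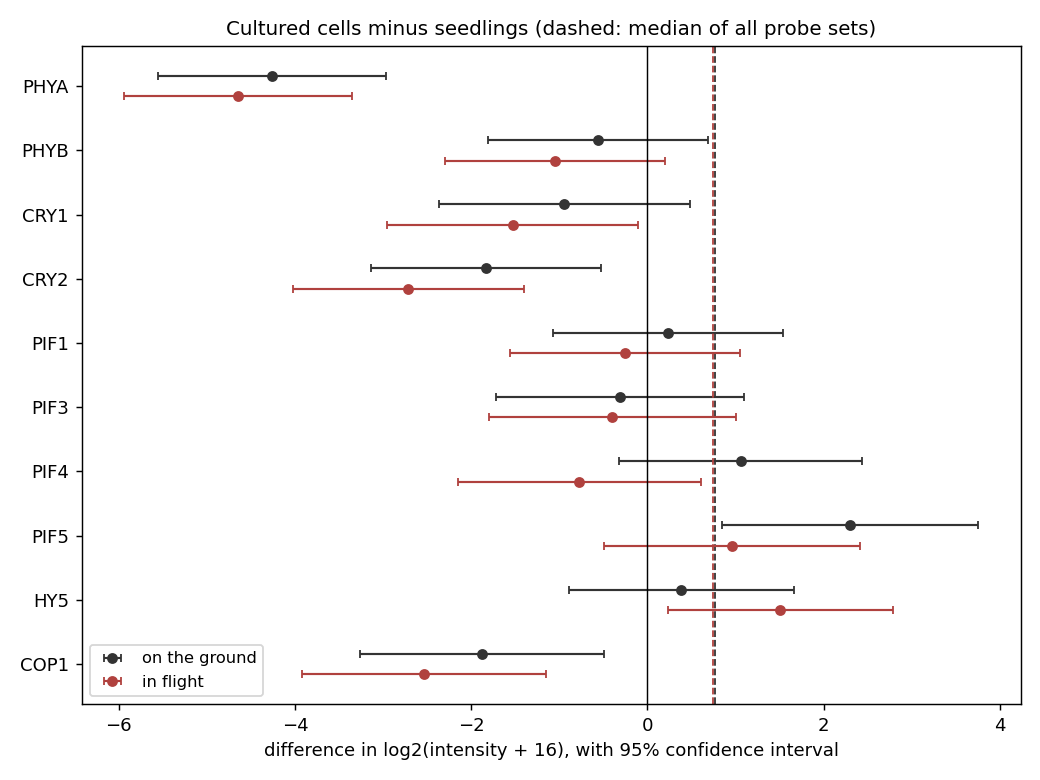
Difference of cultured cells minus seedlings in log2(intensity + 16) for each gene, on the ground and in flight, with 95% confidence intervals from limma and dashed lines at the median of all probe sets (0.77 and 0.75). PHYA lies at -4.26 and -4.64, and CRY2 and COP1 lie below 0 in both conditions.

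Flight against ground was the question of the study, and in the seedlings none of the 10 genes passed. The receptors PHYA, PHYB and CRY2 differed by 0.11, 0.06 and 0.03 units, with 95% intervals of -0.45 to 0.67, -0.57 to 0.68 and -0.52 to 0.57. COP1 differed by -0.14 (-0.76 to 0.49) and HY5 by 0.17 (-0.70 to 1.04). Limma called 0 members at an adjusted p under 0.05, beside 0.0176% of all probe sets. At an unadjusted p under 0.05 the members counted were 2, PIF1 and PIF5, beside 8.01% of all probe sets. No member had flight and ground values that did not overlap, beside 0.655% of all probe sets.

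PIF5, PIF1 and PIF3 had the largest positive differences among the members in seedlings, none of which passed. PIF1 had a lowest, median and highest value of 6.11, 7.26 and 8.20 in flight and 4.70, 5.45 and 7.67 on the ground, with 5 flight arrays and no ground array above background. It differed by 1.33 (7.24 ± 0.75 against 5.92 ± 1.40, SD, n = 6; 95% interval 0.07 to 2.58; unadjusted p = 0.0397 and adjusted p = 0.593 by limma, higher than the mean of ground seedlings in 6 of 6). PIF5 had 5.56, 7.30 and 8.60 in flight and 4.74, 4.99 and 7.89 on the ground, and exceeded background on 5 and 1 arrays. It differed by 1.48 (7.34 ± 1.09 against 5.86 ± 1.54, SD, n = 6; interval 0.01 to 2.94; unadjusted p = 0.0484 and adjusted p = 0.619 by limma, above the ground mean in 5 of 6). Both genes were dim. Background was also higher on ground arrays (110 to 243 intensity units) than on flight arrays (79.8 to 158), and with values raised to the background of each array the differences turned to -0.15 for PIF1 and -0.12 for PIF5. No fold is therefore given for either.

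PIF3 differed by 1.02 (interval -0.24 to 2.27, limma adjusted p = 0.684), CRY1 by 0.92 (-0.23 to 2.06, limma adjusted p = 0.685) and PIF4 by 0.43 (-0.33 to 1.18, limma adjusted p = 0.753). For all 3 the lowest ground value was that of replicate 1, at 5.02, 6.29 and 6.92, each under background (for PIF3 replicate 2, at 6.88, was as well). Without that array the differences fell to 0.47 for PIF3, 0.42 for CRY1 and 0.16 for PIF4, while PIF1 stood at 1.08 and PIF5 at 1.33. In total 9 of 10 members were higher in flight seedlings, with a median of 0.30, against 48.5% of all probe sets and a median of -0.02. Flight arrays had more probe sets above background (62.0% ± 3.54 against 49.9% ± 8.68, SD, n = 6), and the part of this in the members' differences was not tested. In canister A alone (5 arrays against 5) PIF1 differed by 1.12, PIF5 by 1.34, PIF3 by 1.14, CRY1 by 1.08 and PIF4 by 0.64. Canister G held 1 array of each condition, where these genes differed by 2.34, 2.16, 0.42, 0.10 and -0.65.

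In the authors' deposited table for seedlings, PIF1 has a log2 fold change of 1.98 (p = 0.0423, q = 0.411) and PIF5 one of 2.2 (p = 0.0604, q = 0.442). The other members lie between -0.04 (COP1) and 1.25 (PIF3) in the authors' deposited table, with q from 0.469 to 0.726. Directions were the same as here for all 10.

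**Figure D3:**
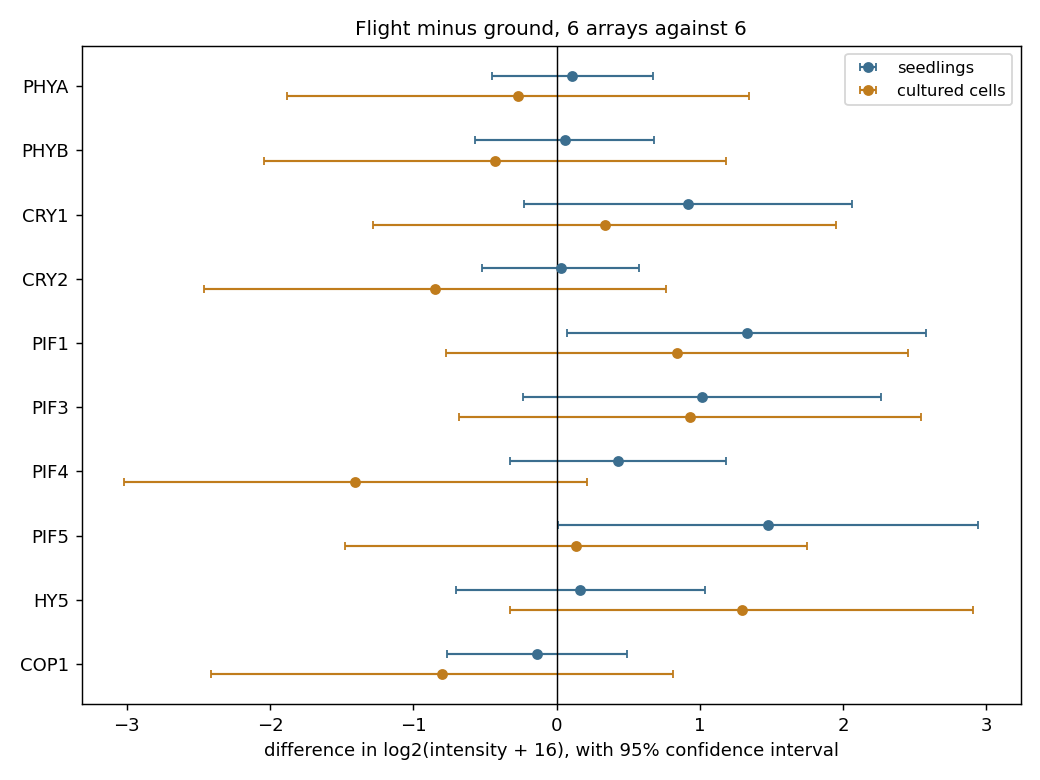
Difference of flight minus ground in log2(intensity + 16) for each gene in seedlings and in cultured cells, 6 arrays against 6, with 95% confidence intervals from limma. In seedlings only the intervals of PIF1 (0.07 to 2.58) and PIF5 (0.01 to 2.94) leave out 0, before adjustment over all probe sets, and in cells every interval includes it.

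In the cells limma called 0 of the 10 genes between flight and ground, beside 0.0352% of all probe sets, and 0 had an unadjusted p under 0.05, beside 5.76%. No member's flight and ground values failed to overlap, beside 0.268% of all probe sets. HY5 was the best measured, with flight arrays at 10.09 ± 0.55 and ground arrays at 8.80 ± 1.68 (SD, n = 6), a difference of 1.29 (interval -0.32 to 2.91, limma adjusted p = 0.928, with 6 of 6 flight arrays over the ground mean). PIF4 had the largest negative difference, -1.40 (interval -3.02 to 0.21, limma adjusted p = 0.897), with 1 flight and 3 ground arrays above background. The remaining 8 lay between -0.85 (CRY2) and 0.93 (PIF3), and 5 of the 10 were higher and 5 lower, with a median of -0.07 against 0.01 for all probe sets. The fit drew the variance of every probe set in the cells to 1 value, so each difference has the same SE of 0.82 and intervals reach 1.6 units to either side. By canister the cells were not uniform: PHYA differed by -1.29 in canister B (4 arrays against 4) and 1.77 in canister G (2 against 2), PHYB by -1.32 and 1.36, and COP1 by 0.29 and -2.98. HY5 (1.71 and 0.47) and PIF4 (-1.71 and -0.80) kept their sign in both. In the authors' deposited table for cells HY5 has a log2 fold change of 1.41 (p = 0.074, q = 0.841) and PIF4 one of -1.58 (p = 0.165, q = 0.864).

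Whether flight acted differently in the materials was tested directly by the difference of the flight effects in 1 fit of all 24 arrays. Limma called 0 of the 10 genes and 0% of all probe sets, and 0 members had an unadjusted p under 0.05, beside 6.63% of all probe sets. PIF4 came closest at -1.83 (-1.40 in cells and 0.43 in seedlings, interval -3.78 to 0.12, unadjusted p = 0.065, limma adjusted p = 0.773). HY5 stood at 1.13 (interval -0.68 to 2.93, limma adjusted p = 0.866) and PIF5 at -1.34 (interval -3.39 to 0.71, limma adjusted p = 0.853).

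The wider pathway was described with lists of known components, counted beside the same measures over all probe sets. None of their genes passed between flight and ground in either material, beside 0.0176% of all probe sets in seedlings and 0.0352% in cells. With values raised to the background of each array the seedling counts changed: 1 was called higher and 3 lower of 9 other photoreceptors, 1 and 3 of 14 COP1 partners, and 0 and 5 of 7 HY5 targets (median -0.72). The other lists then had 0 to 1 called higher and 0 to 2 lower, while over all probe sets that setting called 8885. Of the other photoreceptors 9 of 10 had a probe set, and in seedlings 4 were higher and 5 lower in flight (median -0.01). PHYC, a minor phytochrome, had the smallest p and averaged 7.24 against 6.25 (limma adjusted p = 0.461). It exceeded background on 6 arrays in flight and 1 on the ground. Of 5 further PIF-related factors 4 were higher (median 0.14), with PAR1, an inhibitor of shade growth, at 1.08 (limma adjusted p = 0.583, measured on 6 arrays in flight and 3 on the ground). Among 14 partners and substrates of COP1, 6 were higher (median -0.01), with BBX24, a B-box protein of light signalling, at 0.87 (limma adjusted p = 0.628). The COP9 signalosome, which COP1 needs to act, had 6 of 10 subunit genes higher (median 0.05), with CSN5B at 7.62 against 6.77 (limma adjusted p = 0.521). Of 6 phytochrome cofactors 3 were higher (median 0.01), with PKS1, a phytochrome substrate, at 1.17 (limma adjusted p = 0.592).

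Genes known to be induced by PIFs had a median of 0.41 in seedlings, with 7 of 8 higher in flight and none called, beside 48.5% of all probe sets higher and a median of -0.02. The shoot epidermis markers had a median of 0.53 in the same comparison (5 of 6 higher) and the root markers one of -0.52 (6 of 7 lower), and their part in the result was not tested. CKX5, a cytokinin oxidase, had the smallest p at 1.17 (8.13 against 6.96, limma adjusted p = 0.583), and it was measured on 6 arrays in flight and 1 on the ground. Genes known to be induced by HY5 had a median of -0.13, with 3 of 7 higher, and CHS, the entry enzyme of flavonoid synthesis, averaged 5.73 in flight and 6.81 on the ground (limma adjusted p = 0.68), above background on 1 and 2 arrays. In the cells the PIF targets had a median of -0.40 (1 of 8 higher) and the HY5 targets 0.31 (5 of 7 higher), again with none called. The smallest p in the cells belonged to LKP2 among the photoreceptors (8.51 in flight against 7.34), SPT among the PIF relatives (7.52 against 8.55) and DDB1A among the COP1 partners (9.28 against 7.34, unadjusted p = 0.0186, limma adjusted p = 0.844). For the other lists it was CSN4 (9.39 against 7.95), FHY3 (8.79 against 7.89), ST2A (7.23 against 8.26) and F3H (8.85 against 7.75). These genes were above background on 0 to 4 of 6 cell arrays per group. In the test of the difference of flight effects, the smallest p of each list belonged to PHYE (2.25), PIF6 (-1.66), DDB1A (2.01), CSN5B (-1.39), FAR1 (-1.29), ATHB2 (-2.04) and CHS (1.44), with limma adjusted p from 0.66 to 0.867.

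**Figure D4:**
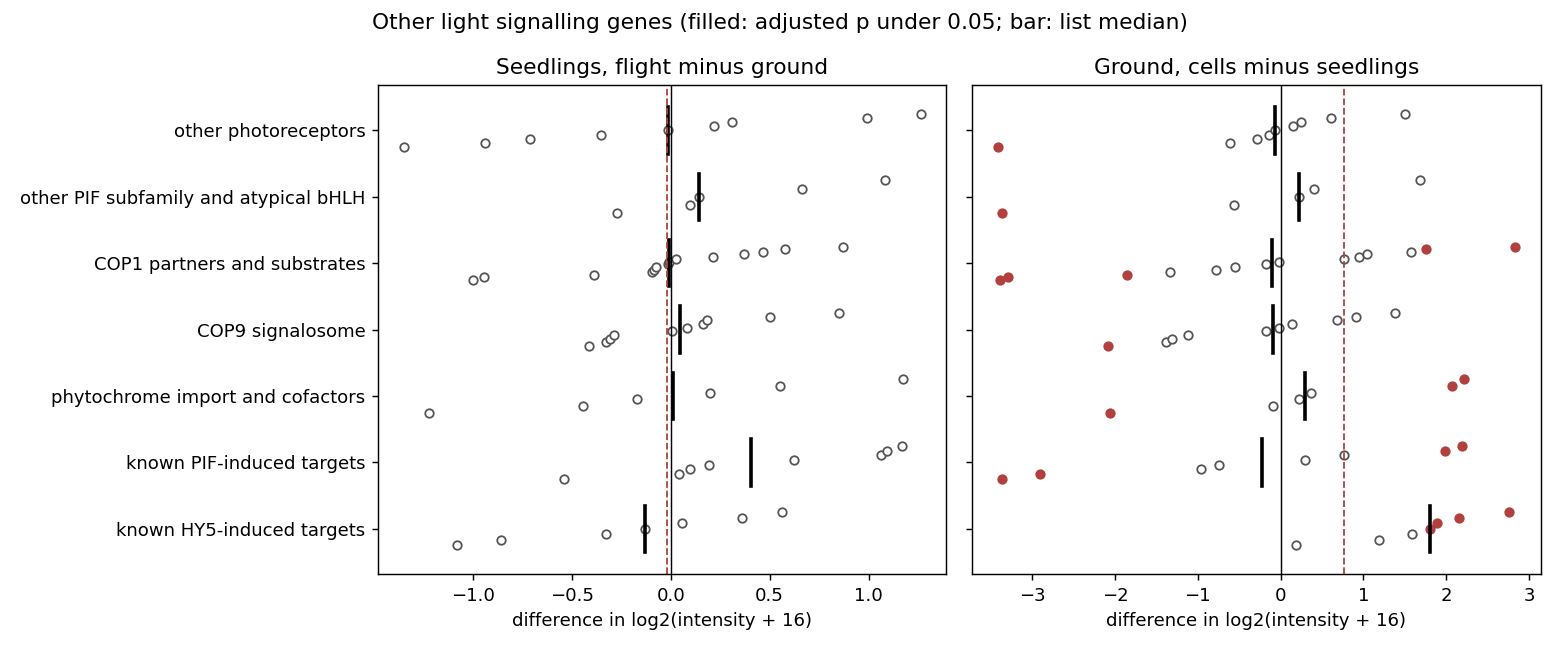
Difference in log2(intensity + 16) for each gene of 7 lists of light signalling genes, flight minus ground in seedlings on the left and ground cells minus ground seedlings on the right, with filled points at an adjusted p under 0.05, black bars at list medians and a dashed line at the median of all probe sets (-0.02 and 0.77). No point is filled on the left, and the HY5 targets on the right have a median of 1.80.

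Between the materials several of these components were called lower in cells than in seedlings, some in both conditions like PHYA and some in only 1. UVR8, the ultraviolet-B receptor, differed in cells by -3.41 on the ground (8.62 against 12.03, limma adjusted p = 0.000296) and by -3.21 in flight (limma adjusted p = 0.000383), above background on 2 and 3 of 6 cell arrays and on all seedling arrays. HFR1, an atypical bHLH factor that binds PIFs and is itself a PIF target, was at least 3.06-fold lower in ground cells (8.16 against 11.51, limma adjusted p = 0.000114) and differed by -2.75 in flight (limma adjusted p = 0.000685). XTH15, a wall enzyme among the PIF targets, was at least 1.51-fold lower in ground cells (limma adjusted p = 0.000872) and differed by -4.45 in flight (limma adjusted p = 1.78e-06, with 2 of 6 cell arrays above background). ATHB2, a shade-induced homeobox gene, was at least 1.93-fold lower in flight cells (limma adjusted p = 0.00165). On the ground it differed by -0.75 and did not pass (limma adjusted p = 0.403). The p-values beside the at-least folds, here and below, belong to the fit without raising values to background and do not test the bounds.

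Among the COP1 partners, BBX21, a B-box activator of HY5, differed by -3.40 on the ground (limma adjusted p = 0.000105) and -3.53 in flight (limma adjusted p = 3.9e-05), above background on 1 of 6 cell arrays each time. DDB1A, a scaffold of the CUL4 ubiquitin ligase, was at least 1.67-fold lower in ground cells (limma adjusted p = 4.72e-05). In flight DDB1A differed by -1.285 and did not pass (limma adjusted p = 0.0672), with 3 of 6 cell arrays above background. CUL4 itself differed by -2.25 in flight (limma adjusted p = 0.00412) and by -1.86 on the ground (limma adjusted p = 0.02). CSN2 differed by -2.09 on the ground (limma adjusted p = 0.00863), and CSN3 averaged 6.78 against 8.96 in flight (limma adjusted p = 0.00224), on no cell array above background. The background of most flight cell arrays lay above that seedling mean of CSN3, so no fold is given. CSN2 did not pass in flight (-0.88, limma adjusted p = 0.252), nor CSN3 on the ground (-1.32, limma adjusted p = 0.0642). FHY3, an activator of phytochrome A import genes, differed by -2.07 on the ground (limma adjusted p = 0.0187). It did not pass in flight (-1, limma adjusted p = 0.243). In flight PHOT1, a blue light receptor of phototropism, differed by -1.64 (limma adjusted p = 0.037) and PIF6 by -2.23 (limma adjusted p = 0.00669), each on 1 of 6 cell arrays above background. Neither passed on the ground (PHOT1 -0.61, limma adjusted p = 0.466, and PIF6 -0.57, limma adjusted p = 0.512). For PHOT1 too, the background of most flight cell arrays lay above the mean of flight seedlings (9.13).

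The genes of these lists named as called higher in cells were above background on few arrays of either material. The HY5 targets CHI (7.92 against 5.15) and ELIP1 (8.06 against 5.91) on the ground and FLS1 (8.13 against 5.16) and CHI (8.64 against 5.72) in flight were above background on 0 to 2 arrays of each group compared. The same held for LAF1 and BBX25 on the ground, SPA1 and LAF1 in flight, PIF8 and PHYE in flight, and YUC8 and CKX5 on the ground, each on 0 to 2 arrays of the groups compared. BIC1 and BIC2, inhibitors of cryptochrome, and CRY3 were above background on 1 to 3 arrays of each group in the comparisons where they were called. No fold is given for these genes, and the part of the higher cell background in the calls was not tested. By list, the calls on the ground were 0 higher and 1 lower of 9 other photoreceptors, 0 and 1 of 5 PIF relatives, 2 and 3 of 14 COP1 partners, 0 and 1 of 10 signalosome genes, 2 and 1 of 6 cofactors, 2 and 2 of 8 PIF targets and 4 and 0 of 7 HY5 targets. In flight they were 2 and 2, 1 and 2, 2 and 3, 0 and 1, 2 and 0, 0 and 4, and 4 and 0 in the same order. Over all probe sets 27.6% were called higher and 10.5% lower on the ground, and 32.9% and 12.5% in flight.

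Which other genes varied most like each member was read from Pearson's r over the 24 arrays among 4338 other probe sets with a symbol that were above background on at least 12 arrays. The points share the material difference and the brightness of each array, so these are descriptions. PHYA was most like the cyclophilin gene ROC5 (r = 0.948) and ATGRIP (0.941), and with the group means taken out these fell to 0.795 and 0.721. COP1 was most like GLDP2, a glycine decarboxylase subunit (0.903), and the brassinosteroid kinase gene BIN2 (0.859). With the group means taken out these were 0.873 and 0.783. COP1 was above background on 0 of 12 cell arrays, so its cell points are unmeasured. For every other member compared except HY5, most cell points were under background too. CRY2 followed PR4 (0.879) and the translation factor gene EIF3A (0.859), and CRY1 followed 4CL5 (0.835) and ABO1 (0.817). For PIF4 the nearest were KUP7 (0.807) and EXLA1 (0.791), and for PIF3 SAHH2 (0.814) and RECA3 (0.759). PHYB was nearest to the plastid protease gene CLPP5 (0.778) and HB20 (0.777), and HY5 to the antenna gene LHCB4.3 (0.782) and RKF1 (0.745). PIF1 and PIF5 were above background on fewer than 12 arrays and were left out.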

How the data were processed

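The authors deposited linear intensity values, and the submitters' processing notes name MAS5 and Affymetrix Expression Console with no version. The mean of an array without its lowest and highest 2% is 500 throughout, which shows that the deposited intensities were scaled. After scaling, the cre control probe sets averaged 17.98 to 20.77 log2 units on flight cell and 19.70 to 20.43 on ground cell arrays. They averaged 16.47 to 17.87 on flight and 17.54 to 18.12 on ground seedling arrays. The part of the scaling in the differences between materials was not tested. Per the labels, cDNA was amplified with a whole-transcriptome kit before labelling. For each probe set the authors' deposited tables list, per the file headers, the log2 fold change with its p-value and q-value. Their test is not given in the sources used here.

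Intensities were taken as log2(value + 16). The 64 control probe sets were left out, and no further filter or normalization was applied. Flight and ground were compared within each material over 12 arrays. The comparisons between materials and the difference of flight effects used 1 fit of 4 group means over 24 arrays. Every test was two-sided and came from lmFit and eBayes of limma 3.58.1, run in R 4.3.3. P-values were adjusted by Benjamini-Hochberg across the 22746 probe sets, with 0.05 as the threshold. The fits were tested on simulated data. A gene below background on every array of a group is given as "at least N-fold" against the background of those arrays, where the other group had at least 4 arrays above it. Where that came out under 1, no fold is given. A limma p-value beside such a fold comes from the fit without raising values to background and does not test the bound.

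Probe sets were named by locus from the deposited annotation, and other genes' symbols from RefSeq. No coordinates or sequences are given, since the files name no genome build. Of 94 list entries 80 had a probe set of their own. The members, lists and named genes (all members; for each list and comparison the 2 largest called genes in each direction, or else the gene with the smallest p; the 2 genes most like each member) were chosen with earlier results of these data known. Alternatives were pseudocounts of 1 and 64, a background filter, quantile normalization, a trended robust prior, hardware position or canister as a block, other sets of arrays, array weights and leaving out each array. None of the 24 arrays was identical to another, and their number limits the precision. Python 3.11.15, pandas 2.3.3 and matplotlib 3.10.9 made the tables and figures.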

Additional observations from a re-analysis of the deposited data

Results flagged for a closer look

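In 40 checks of a gene in a group of 6 arrays, 3 single arrays stood apart from the other 5, where chance alone gives about 1 in 20. All 3 were cell arrays, and none of the 3 values was above background. PHYB on flight cell replicate 4 was at 5.88, against 8.80 to 10.17 on the other flight cell arrays. PIF4 on ground cell replicate 4 was at 6.63, against 9.38 to 10.31. COP1 on flight cell replicate 3 was at 9.99, against 5.55 to 7.15.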

How the results depend on the processing

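Over all alternatives the count of members called stayed at 0 for flight against ground in each material and for the difference of flight effects. No paired value changes a call: with the replicate block of hardware position 0 members were called in cells and 0 in seedlings, and with position as a random block 4 were called in each comparison of materials. Samples of the same position did not deviate together (r from -0.05 to 0.10 over 6 pairs of cells and -0.02 to 0.06 over 6 pairs of seedlings, with 3 and 2 of 6 flight samples nearest to their own position), so the numbers were not taken as pairs. Leaving out 1 array gave 2 to 4 members called between materials on the ground and 3 to 4 in flight. PHYA kept its call in every alternative in both. With values raised to background that call rests mostly on the backgrounds of the cell arrays, so it is no test of PHYA. Over all probe sets the calls ranged from 1 to 39 (8 as reported) for flight in cells, and from 2854 to 19971 (8675 as reported) and 3552 to 19652 (10331 as reported) between materials on the ground and in flight. For flight in seedlings they ranged from 0 to 8885 (4 as reported), and for the difference of flight effects from 0 to 5 (0 as reported).

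Values raised to the background of each array, chosen after the data were seen, gave 7 called members on the ground and the highest of these counts except in cells and the difference of flight effects, since by construction the higher background of 1 group then stands in for its dim genes. In that setting signs turned for flight in cells (CRY1 -0.021, PIF5 -0.027) and in seedlings (PIF1 -0.15, PIF5 -0.12), for the materials on the ground (PHYB 0.33, CRY1 0.85, PIF3 1.67, COP1 0.39) and in flight (PHYB 0.25, CRY1 0.17, PIF1 2.46, PIF3 1.29, PIF4 1.05, COP1 0.21), and for the difference of flight effects (PIF1 0.19, PIF5 0.093). Quantile normalization turned PHYB (-0.034) and CRY2 (-0.026) in seedlings, PIF1 (-0.76) and HY5 (-0.25) between the materials on the ground and PIF3 (0.31) in the difference of flight effects, where a pseudocount of 64 also turned PIF3 (0.074). In the larger canister PIF5 (-0.17) and COP1 (0.29) turned in cells and PHYB (-0.001) in seedlings, and in canister G PIF1 (0.945) and PIF4 (0.834) turned between the materials in flight. The cause was not tested.

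Leaving out 1 array also turned signs of uncalled differences. Flight differences ranged from -0.65 to 0.13 for PHYA, -0.79 to 0.14 for PHYB, -0.14 to 0.71 for CRY1 and -0.31 to 0.58 for PIF5 in cells, and from -0.044 to 0.206 for PHYB, -0.071 to 0.111 for CRY2 and -0.062 to 0.359 for HY5 in seedlings. Material differences ranged from -0.012 to 0.582 for PIF1 and -0.01 to 0.89 for HY5 on the ground, and from -0.788 to 0.046 for PIF1 and -0.88 to 0.11 for PIF3 in flight. The difference of flight effects ranged from -0.765 to 0.018 for PHYA, -0.848 to 0.081 for PHYB and -0.56 to 0.46 for PIF3. High background limits what the cell arrays can show: differences of genes under it are not measured, and a p above the threshold does not show that a gene is unchanged.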

Other observations

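Among the 12 seedling arrays, with the group means taken out, some members varied together from array to array. CRY1 and PIF4 had a Pearson r of 0.728, CRY1 and PIF3 one of 0.635 and PIF3 and COP1 one of 0.634, while PHYA and HY5 stood at -0.644. Ground replicate 1, the seedling array with the fewest probe sets above background, held the lowest ground value of CRY1, PIF3, PIF4, PHYA, PHYB and COP1. These are descriptions over 45 pairs of genes that share the same 12 arrays.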
